A study of Mus musculus with 12 samples.

Results

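The genes of the p53 family, Trp63, Trp73 and Trp53, were described in mouse airway organoids after laser-based ablation of cells. These 3 genes were taken by their symbols from the 55401 genes of the deposited table, and all 3 passed the minimum of 10 normalized counts in 6 libraries that 13792 genes met. They were selected on their normalized counts in ablation and control dishes of the same number and across passages and culture days, so all values of the 3 genes are given as a description and without a test.

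Airway organoids were grown from airway epithelial cells of adult C57BL/6J wild-type mice, cultured in basement membrane extract. All organoids of both groups carried a lentiviral vector for a histone 2A-mCherry fusion protein under a Trp63 promoter of human origin, which marks nuclei in which that promoter is active. In the ablation group, a femtosecond laser ablated 10 neighboring cells in each of 45 organoids per dish, and in the control group none were ablated. All dishes were kept in unsupplemented FluoroBrite DMEM, a medium for imaging, and harvested 4.5 h after treatment. Bulk poly(A) RNA was sequenced from 6 dishes per group, numbered 1, 3, 4, 5, 6 and 7. An ablation and a control dish of the same number shared the passage and the culture day and form a pair. Pairs 1 and 3 were of passage P2+14 on days 14 and 20, pairs 4 and 5 of P2+15 on days 14 and 15, and pairs 6 and 7 of P2+16 on days 18 and 19. The library numbers of pairs 1, 3 and 5 and those of pairs 4, 6 and 7 form 2 runs, called library set 1 and library set 2. The titles of control dishes 4, 6 and 7 contain the word ablation while their treatment label says control, and they were taken as controls. For this reason, values of the 3 genes are also given for each library set. Nothing states that dishes came from separate isolations of cells, so the spread between dishes may be partly technical.

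The p53 family encodes transcription factors that bind closely related DNA elements through a conserved DNA-binding domain. Trp53 encodes p53, which is held low by the ubiquitin ligase Mdm2 and, once stabilized after DNA damage or other stress, activates genes of cell cycle arrest, DNA repair and apoptosis. This control acts mainly on the protein, so p53 activity does not follow from the level of its transcript. Trp63 encodes p63, which maintains basal cells, the stem cells of the airway epithelium, and activates genes of basal keratins, integrins and cell junctions. Trp73 encodes p73, which acts in the differentiation of multiciliated cells and is also made in part of the basal cells. Trp63 and Trp73 each use an upstream start site, which gives TA proteins with the transactivation domain, and an internal start site, which gives ΔN proteins that lack it. In airway basal cells the main form of p63 is ΔNp63.

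Coordinates are given for GRCm38. Trp63 (ENSMUSG00000022510.14) lies on the forward strand of chromosome 16 from 25683763 to 25892102 and has 8391 exonic bases. Trp73 (ENSMUSG00000029026.17) lies on the reverse strand of chromosome 4 from 154056249 to 154140208 with 5538 exonic bases. Trp53 (ENSMUSG00000059552.13) lies on the forward strand of chromosome 11 from 69580359 to 69591873 with 4045 exonic bases. In the GENCODE M21 annotation, the internal start of Trp63 lies 118.2 kb downstream of its upstream start, and that of Trp73 43.0 kb downstream. The gene-level counts hold TA and ΔN transcripts together, which the first 60 coding bases of a transcript from each start make visible. Capitals mark bases that the transcript from the other start lacks, and all sequences run 5′ to 3′.
TA Trp63 (Trp63-208, coding from base 25684290 of chromosome 16): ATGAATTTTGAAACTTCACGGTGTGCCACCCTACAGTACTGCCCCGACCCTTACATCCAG
ΔN Trp63 (Trp63-201, coding from base 25802060 of chromosome 16): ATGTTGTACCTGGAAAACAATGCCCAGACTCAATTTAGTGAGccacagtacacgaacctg
TA Trp73 (Trp73-204, coding from base 154104895 of chromosome 4): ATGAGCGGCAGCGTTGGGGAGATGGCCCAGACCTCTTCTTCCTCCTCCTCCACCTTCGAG
ΔN Trp73 (Trp73-205, coding from base 154096932 of chromosome 4): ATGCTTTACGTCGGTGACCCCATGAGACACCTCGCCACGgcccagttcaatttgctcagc

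The own part of the coding sequence measured 324 bases in TA Trp63 and 42 bases in ΔN Trp63, against 183 bases in TA Trp73 and 39 bases in ΔN Trp73. The rest of the transcripts was shared, with 84.2% of the exonic bases of Trp63-208 also in Trp63-201 and 88.7% of those of Trp73-204 also in Trp73-205. A difference in these counts can therefore come from either start site. Between genes, reads can be told apart well: the longest exact stretch shared by transcripts of Trp63 and Trp73 was 23 bases, and the longest shared by Trp63 and Trp53 was 14 bases, while reads were 75 bases long. Trp53 shares up to 106 bases with its pseudogene Trp53-ps on chromosome 17, which was at 1.93 to 13.8 normalized counts in the 12 libraries. The antisense gene Trp73os overlaps Trp73 in 280 exonic bases and did not exceed 3.51 normalized counts. No other gene of the deposited annotation overlaps an exon of the 3 genes.

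RefSeq promoter sequences (GRCm38.p6) were matched for Trp73, at an upstream and an internal start site, and for Trp53. The upstream 250 bases of the internal Trp73 promoter (chr4:154097174-154097423, reverse strand) are shown because p53 family proteins are known to act on this promoter. Capitals mark the best match to a p53 response element, which consists of 2 decamers, at positions -66 to -47 from the start site.
Internal Trp73 promoter: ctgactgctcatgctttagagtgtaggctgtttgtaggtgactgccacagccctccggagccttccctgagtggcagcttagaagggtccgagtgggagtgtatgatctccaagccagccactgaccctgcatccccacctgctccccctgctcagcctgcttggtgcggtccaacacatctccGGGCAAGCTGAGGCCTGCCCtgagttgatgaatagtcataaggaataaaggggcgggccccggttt

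This match had 2 of its 20 positions off the consensus, with the central C and G of both decamers in place. Among 32851 RefSeq promoters of 300 bases, 453 (1.38%) held a pair of adjoining decamers with this C and G in place and at most 3 positions off. The share with at most 2 positions off was not determined. The Trp53 promoter held 1 complete decamer at the start of a pair with 3 positions off, at positions -75 to -56. A complete decamer was found in 2745 promoters (8.36%). The upstream Trp73 promoter of RefSeq, with a start site at base 154139875, held neither. Its 300 bases lie within the first exon of Trp73-204 (154139823 to 154140208). The bases upstream of the start of Trp73-204 were therefore not searched. The decamer reads the same on both strands. The matches describe the sequence and do not show binding.

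The normalized counts of a library, which are read counts divided by the DESeq2 size factor of that library, summed to between 27297950 and 28504390. Whole reads were recovered for 9 of the 12 libraries, with 23631212 to 29775699 reads per library. Markers of basal cells, such as Krt5 and Krt14, summed to 606334 to 751429 normalized counts in control and 595214 to 771105 in ablation dishes, and all 10 were expressed. Secretory cell markers summed to 93551 to 145130 in control and 83902 to 162999 in ablation dishes. Most of this sum was Cyp2f2 and the general luminal keratin gene Krt8, with control means of 50895 and 24986 normalized counts. In contrast, 5 of the 12 markers were below a mean of 10. Among these, the club cell secretory protein gene Scgb1a1 did not exceed 9.65 normalized counts in any dish. Multiciliated cell markers were low, with 7 of 10 below a mean of 10 normalized counts. Fibroblast markers summed to at most 48.3, endothelial markers to at most 21.4, alveolar type II markers to at most 14.5, and neuroendocrine and tuft markers to at most 73.6 in any dish. Immune cell markers summed to 4375 to 6175, almost entirely from Cd14, which epithelial cells also express, while the leukocyte gene Ptprc did not exceed 22.4.

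Trp63 was higher in the ablation dish of every pair. Its normalized counts were lowest at 6443, with a median of 7645 and a maximum of 8928, in the control dishes, and 8400, 9873 and 11436 in the ablation dishes. The lowest ablation dishes, those of pairs 4 and 5, lay within the range of the controls, and the other 4 lay above every control. The mean of the ablation dishes was 9844 ± 1141 and that of the control dishes 7505 ± 917 (SD, n = 6), and the mean log2 difference was 0.39 (SD 0.16 over 6 pairs). This corresponds to a 1.31-fold higher level. The smallest difference was that of pair 5, with 13.3% more Trp63 in the ablation dish, and the largest that of pair 6, with 51.7% more.

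A difference in the same direction in 6 of 6 pairs towards higher levels was seen for 713 of the 13792 genes (5.17%). Of all genes, 327 (2.37%) had a mean difference as high as that of Trp63 or higher. The mean difference was 0.33 in library set 1, in which titles and treatment labels name the same group, and 0.45 in library set 2. In bulk samples, more or fewer cells of a type and more or less RNA per cell cannot be told apart, which holds for all 3 genes. The summed basal cell markers were higher after ablation in 3 of 6 pairs. Most of this sum was Krt5 and Krt14, with control means of 274710 and 235730 normalized counts, higher in 4 and 5 of 6 pairs. Of the other markers, Krt17, Pdpn, Dapl1 and Aqp3 were lower in 5 of 6 pairs. Krt15, Ngfr and Snai2 were lower in 4 of 6 pairs, and Itga6 was higher in 6 of 6.

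Trp53 was lower in the ablation dish of 5 pairs. The control dishes ranged from 3878 to 5231 normalized counts with a median of 4379, and the ablation dishes from 3149 to 4366 with a median of 3871. In 3 ablation dishes, those of pairs 1, 4 and 5, Trp53 was below every control, while the others overlapped with the controls. Mean levels were 3807 ± 502 after ablation and 4466 ± 488 in the control (SD, n = 6). The mean log2 difference was -0.23 (SD 0.17 over 6 pairs), which is a 0.850-fold level.

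Pair 7 was the exception, with 4081 normalized counts in the ablation dish and 3878 in the control dish. In the other pairs, the log2 difference lay between -0.40 (pair 4) and -0.17 (pair 6). Among all genes, 724 (5.25%) had a mean difference as low as that of Trp53 or lower. In library set 1, the mean difference was -0.30, with all 3 pairs lower, and in library set 2, which includes pair 7, it was -0.17.

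Trp73 was the least abundant of the family and was lower in the ablation dish of every pair. Control dishes held between 283 and 650 normalized counts, with a median of 486, and ablation dishes between 187 and 564, with a median of 288. The ranges overlapped widely, since the levels of the pairs differed, and only the ablation dishes of pairs 4 and 5 lay below every control. Ablation dishes averaged 317 ± 131 and control dishes 476 ± 126 (SD, n = 6), and the mean log2 difference was -0.62 (SD 0.27 over 6 pairs). The level after ablation was thus 0.649-fold that of the control.

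Pair 1 showed the smallest change, from 650 to 564 normalized counts. Pair 3 showed the largest, from 544 to 288. Lower levels in 6 of 6 pairs were found for 638 of all genes tested (4.63%), and 51 genes (0.37%) had a mean difference as low or lower. The mean difference was -0.57 in library set 1 and -0.67 in library set 2. Beside Trp73, the summed multiciliated cell markers ranged from 186 to 249 normalized counts in control and from 152 to 221 in ablation dishes and were lower after ablation in 5 of 6 pairs. Most of this sum was 1 gene, Rsph1, with means of 133 in control and 124 in ablation dishes. Of the other markers, Sntn and Tekt1 were at 0 in all dishes and Foxj1 did not exceed 18.1. The part of these markers in the level of Trp73 was not tested.

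**Figure D1:**
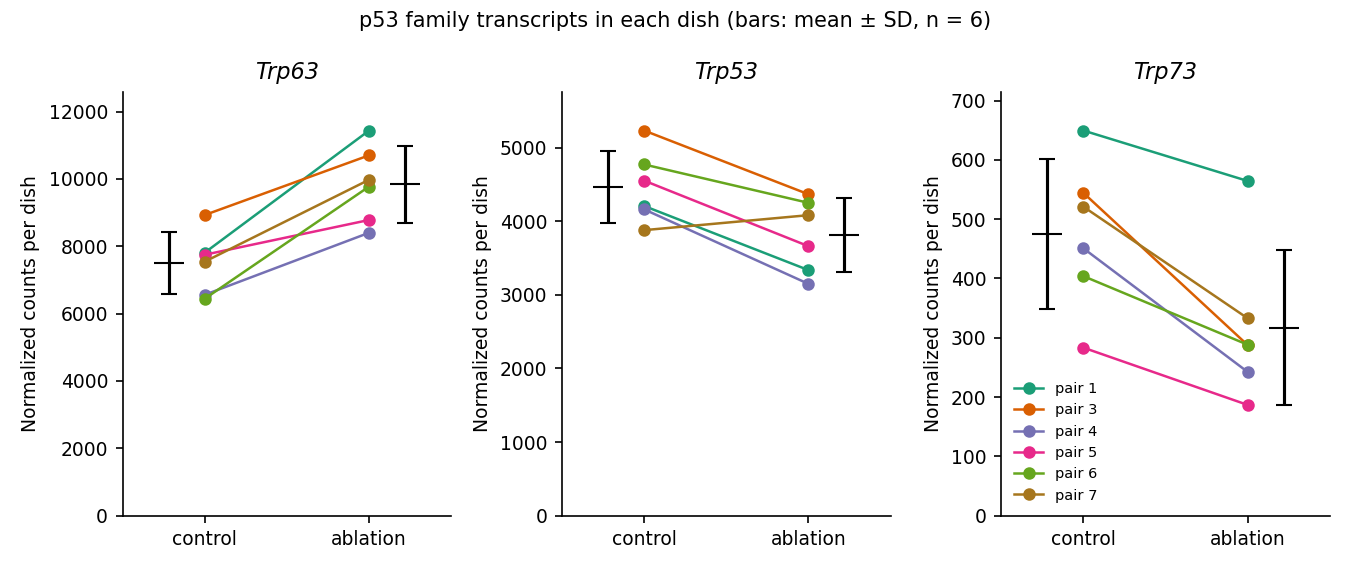
Normalized counts of Trp63, Trp53 and Trp73 in each dish, with a line joining the control and ablation dish of a pair and black bars for the mean ± SD of 6 dishes. Trp63 lines all run upward from control to ablation, Trp73 lines all run downward, and Trp53 lines run downward except for that of pair 7.

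To compare levels between genes, normalized counts were divided by the exonic length of the gene in kb. This length covers all annotated transcripts, so the values and the order of the genes depend on which transcripts were made. In control dishes, Trp53 was highest with 1104 ± 121 normalized counts per kb (SD, n = 6), followed by Trp63 with 894 ± 109 and Trp73 with 85.9 ± 22.8. The ranges of Trp53, from 959 to 1293 per kb, and Trp63, from 768 to 1064 per kb, overlapped across control dishes, although Trp53 was the higher of both in each one. After ablation, Trp63 came first with 1173 ± 136 per kb, then Trp53 with 941 ± 124 and Trp73 with 57.3 ± 23.6. Their ranges again overlapped, from 1001 to 1363 per kb for Trp63 and from 779 to 1079 per kb for Trp53. On the mean over the 12 dishes, 10.0% of the genes tested had a higher level per kb than Trp63, 10.2% a higher level than Trp53 and 67.7% a higher level than Trp73.

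With these exonic lengths, the order of Trp63 and Trp53 within dishes was opposite in both groups. Trp63 was divided by 8391 bases, while the ΔN transcript Trp63-201 has 4703 bases. With other lengths, the order in a group could turn, although fixed lengths shift the ratio by the same factor in all dishes. The level of Trp53 per kb was 107% to 154% of that of Trp63 in control dishes, with a median of 122%, and 60.5% to 90.2% in ablation dishes, with a median of 84.8%. No ablation dish reached the lowest control dish in this ratio. Since this ratio combines the differences of both genes, and the genes were chosen for them, it is not a separate result. Trp73 per kb was 5.54% to 12.6% of Trp63 in control dishes (median 9.96%) and 3.22% to 7.48% in ablation dishes (median 4.42%). Here, the control dish of pair 5 lay within the range of the ablation dishes, and the ablation dish of pair 1 within that of the controls. The sum of the 3 genes per kb ranged from 1892 to 2456 in control and from 1823 to 2407 in ablation dishes, so the family as a whole overlapped between both groups.

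**Figure D2:**
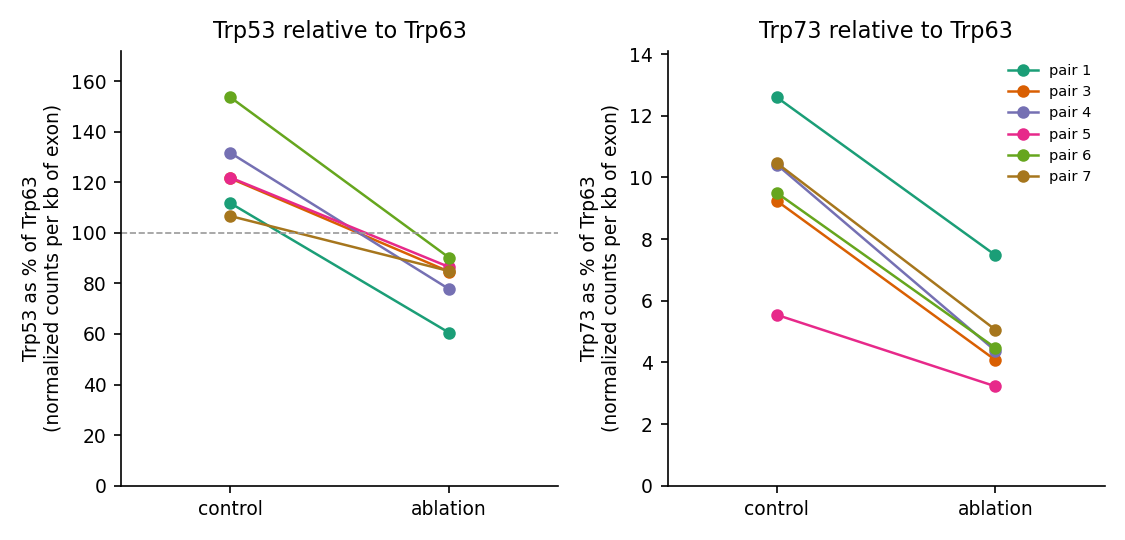
Level of Trp53 (left) and Trp73 (right) as a percentage of the level of Trp63 in the same dish, each in normalized counts per kb of exon, with a line for each pair. All control dishes lie above 100% (dashed line) for Trp53 and all ablation dishes below it, and Trp73 relative to Trp63 is lower after ablation in each pair. The place of the dishes against 100% depends on the exonic lengths used.

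Among dishes of the same group, Trp73 varied most. In the control, its highest dish was 2.29-fold its lowest, against 1.39-fold for Trp63 and 1.35-fold for Trp53. The coefficients of variation were 26.6% for Trp73, 12.2% for Trp63 and 10.9% for Trp53 in control dishes, and 41.3%, 11.6% and 13.2% in ablation dishes. On the log2 scale, the SD over control dishes was 0.41 for Trp73, 0.18 for Trp63 and 0.16 for Trp53. The log2 differences within pairs had an SD of 0.27, 0.16 and 0.17 in the same order. Over the 12 dishes, the log2 values of Trp63 and Trp73 had a Pearson r of -0.16, those of Trp63 and Trp53 of -0.28, and those of Trp73 and Trp53 of 0.25. These coefficients include the difference between the groups. Over the 6 differences within pairs, which do not, r was 0.64 for Trp63 and Trp73, 0.20 for Trp63 and Trp53, and 0.05 for Trp73 and Trp53, so the sign turned for both pairs of genes with Trp63. All are descriptions of few dishes.

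The levels were also set out by passage and culture day. Each passage is represented by 2 pairs, those of P2+14 are in library set 1 and those of P2+16 in library set 2, so passage and library set cannot be told apart there. Trp73 was lowest in passage P2+15, where the geometric mean of its pair levels was 277 normalized counts, against 491 in P2+14 and 378 in P2+16. The lowest pair was pair 5 of day 15, with 283 and 187 normalized counts in its control and ablation dish, and the highest was pair 1 of day 14. Trp63 had geometric means of 9611, 7826 and 8298 in P2+14, P2+15 and P2+16, and Trp53 of 4233, 3844 and 4233. All 3 genes had their lowest geometric mean in P2+15. Between P2+15 and P2+16, with 2 pairs each, the pair levels overlapped for Trp63 and Trp53. For Trp73, the nearest pairs differed little, with mean log2 levels of 8.37 in pair 4 (P2+15) and 8.42 in pair 6 (P2+16).

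Pairs of days 18 to 20 (late) were also set against those of days 14 and 15 (early). Both pairs of P2+15 are early and both of P2+16 are late, so culture day and passage cannot be told apart in this comparison, except within P2+14, which has 1 pair of each. Late minus early, the log2 difference of pair means was 0.07 for Trp63 and 0.10 for Trp73, and each turned negative when 1 pair was left out. For Trp53, it was 0.21 and stayed positive without any 1 pair (0.15 to 0.28). In ablation dishes, Trp53 ranged from 3149 to 3661 normalized counts in early and from 4081 to 4366 in late pairs. These ranges did not overlap, but each holds only 3 dishes. The share of all genes that separate in the same way was not determined. In control dishes, it ranged from 4161 to 4551 in early and from 3878 to 5231 in late pairs, so the late range enclosed the early one. Accordingly, the mean difference of Trp53 between ablation and control was -0.35 in early and -0.12 in late pairs. The early pairs lay between -0.40 and -0.31. The late pairs were at -0.26 (pair 3), -0.17 (pair 6) and 0.07 (pair 7), so the late mean rests in part on pair 7. For Trp63, the mean difference was 0.36 in early and 0.42 in late pairs, and for Trp73 -0.56 and -0.68.

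**Figure D3:**
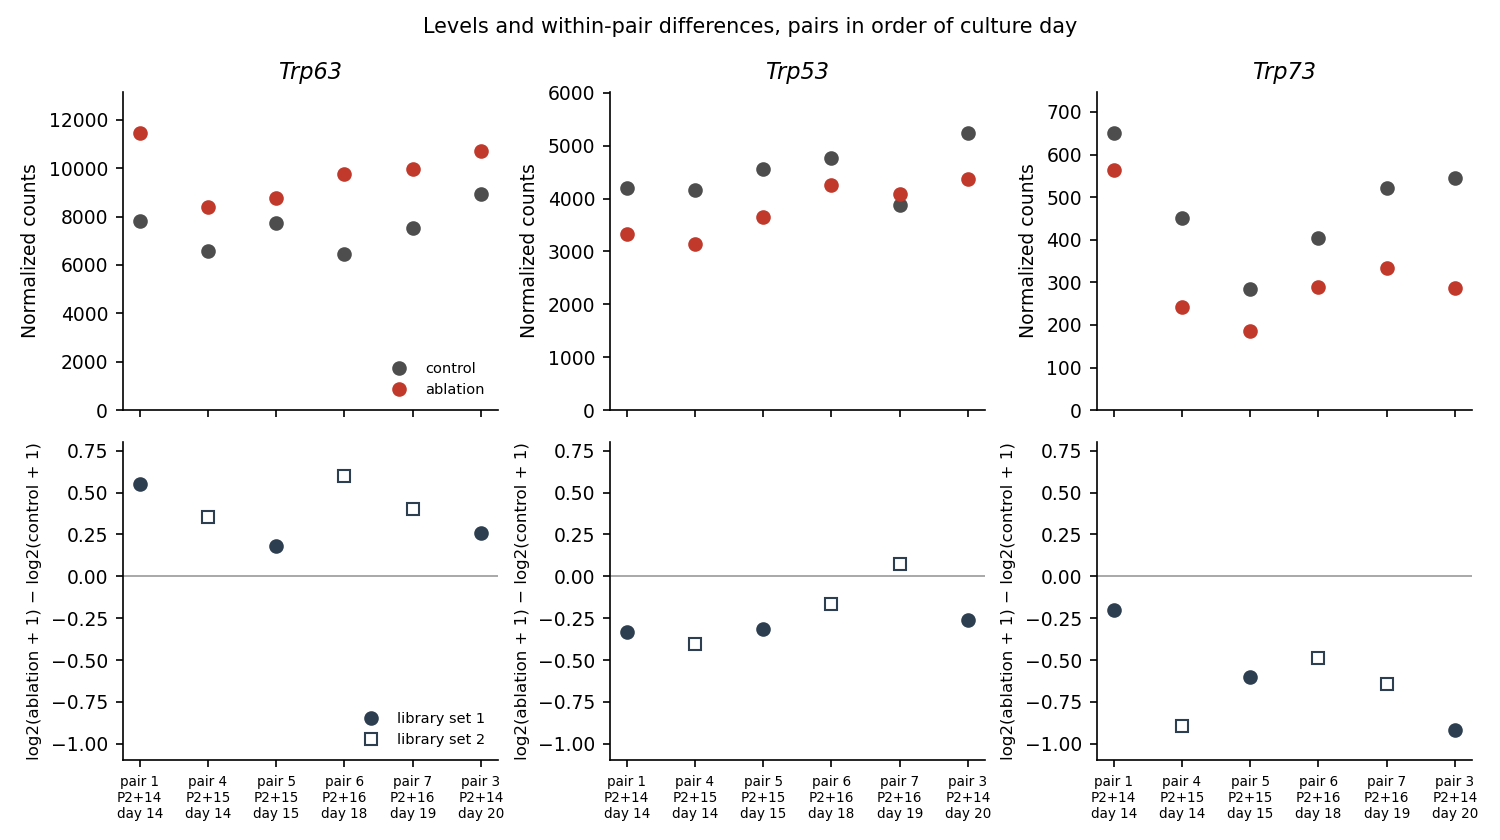
Top, normalized counts of Trp63, Trp53 and Trp73 in the control and ablation dish of each pair, with pairs in order of culture day. Bottom, log2 difference between the ablation and control dish of the pair (normalized counts + 1), with filled circles for library set 1 and open squares for library set 2; Trp63 differences lie between 0.18 and 0.60, Trp53 differences between -0.40 and 0.07 and Trp73 differences between -0.92 and -0.20.

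The genes around the family were tested with limma in a model of condition and library set, over all 13792 genes. The threshold was an adjusted p-value of 0.05, which 0 genes (0%) met in this model, while 1083 genes (7.85%) were below 0.05 before adjustment. When the pair was used as a block in place of the library set, 150 genes (1.09%) met it, 93 higher (0.674%) and 57 lower (0.413%), and 2433 (17.6%) were below 0.05 before adjustment. Over all genes, the median log2 difference was -0.0036 and 6689 were above 0. For single genes, SEs and adjusted p-values are from the library set model unless the block is named. The library set model has no term for the pair, so its SEs include the spread between pairs.

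Regulators of p53 were measured as a list of 20 genes, including the inhibitors Mdm2 and Mdm4, the DNA damage kinases Atm, Atr, Chek1 and Chek2, and the acetyltransferases Ep300 and Crebbp. Of these, 0 passed the test in either model. Before adjustment, 2 were below 0.05 with the library set and 3 with the block. The difference was above 0 for 11 of 20, with a median of 0.00093. Mdm2, which is both the main ubiquitin ligase of p53 and one of its target genes, had 3084 ± 237 normalized counts after ablation and 2984 ± 83.2 in the control (SD, n = 6), with a log2 difference of 0.04 (SE 0.051). It was higher in 4 of 6 pairs.

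The regulators with the largest differences were Cdkn2a and Chek1. Cdkn2a, which encodes p16 and the Mdm2 inhibitor Arf, had a log2 difference of 0.19 (adjusted p = 0.740 in limma), and its level ranged from 106 to 164 normalized counts in control and from 135 to 187 in ablation dishes. Chek1, a checkpoint kinase of S and G2 phase, had a difference of 0.14 (adjusted p = 0.862 in limma) with 1050 ± 258 normalized counts in ablation and 932 ± 118 in control dishes (SD, n = 6). With the block, the adjusted p of Chek1 in limma was 0.481 with all pairs and 0.0405 to 0.739 without 1 pair. Chek1 passed only without pair 1, with a difference of 0.25, in a fit in which 176 of all 13792 genes passed. For both genes, the dishes of the groups overlapped. Sirt1, a deacetylase gene, was higher in 6 of 6 pairs by 0.12, and Ppp1r13l, which encodes the p53 inhibitor iASPP, was lower in 6 of 6 pairs with a difference of -0.12. Their adjusted p-values in limma were 0.615 and 0.581 with the library set, and both were named after their values were seen.

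Target genes of p53 were measured as 29 genes, all of them expressed. In both models 0 passed, and 2 were below 0.05 before adjustment with the library set and 5 with the block. The difference was above 0 for 11 of 29, and the median was -0.036. Cdkn1a, the p53 target that encodes the cell cycle inhibitor p21, had 5012 ± 593 normalized counts after ablation, ranging from 3987 to 5519, and 5242 ± 682 in the control, ranging from 4457 to 6284. The groups overlapped and its log2 difference was -0.06 (SE 0.098), with a lower value in 4 of 6 pairs.

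The largest differences ran in both directions. For Sesn1, a stress-response gene that restrains mTORC1, the log2 difference was -0.21 (SE 0.24, adjusted p = 0.857 in limma), and the SD of its 6 ablation dishes was 739 normalized counts around a mean of 1600. For Zmat3, a zinc finger RNA-binding protein gene, it was -0.16 (SE 0.068, adjusted p = 0.619 in limma) with lower values in 6 of 6 pairs. With the block, the adjusted p in limma was 0.101 for Zmat3 and 0.260 for Sesn1 (SE 0.088). Differences of nearly the same size were above 0 for Rrm2b, a ribonucleotide reductase subunit gene, with 0.16 (SE 0.091) in 6 of 6 pairs, and for Ddb2, a DNA repair gene, with 0.16 (SE 0.079) in 5 of 6 pairs. Phlda3 was lower in 6 of 6 pairs with -0.14 (SE 0.064). These 3 genes were named after their values were seen, and none passed the test in limma with either the library set or the block.

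Target genes of p63 were measured as 36 genes, of which 35 passed the minimum of normalized counts. The list covers basal keratins, integrins, laminins, desmosome genes and Notch ligands, and shares Sfn and Perp with the p53 targets. In both models 0 of 35 passed, and before adjustment 0 were below 0.05 with the library set and 5 with the block. The difference was above 0 for 20 of 35 genes, with a median of 0.019. Krt5, the defining keratin of basal cells, ranged from 229020 to 322785 normalized counts in control and from 232140 to 340090 in ablation dishes, with a log2 difference of 0.02 (SE 0.068).

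The largest difference of the p63 targets was that of Fras1, an extracellular matrix gene of the epithelial basement membrane, with 0.51 (SE 0.62, adjusted p = 0.863 in limma). Its level ranged from 7.90 to 131 normalized counts in control and from 14.6 to 180 in ablation dishes, and it was higher in 3 of 6 pairs. Jag1, a Notch ligand, followed with 0.21 (SE 0.20, adjusted p = 0.822 in limma) and was higher in 5 of 6 pairs. With the block, the adjusted p in limma was 0.356 for Fras1 (SE 0.27) and 0.234 for Jag1 (SE 0.082). The integrin genes Itga6 and Itgb4, whose products form a heterodimer of hemidesmosomes, were named after their values were seen: Itga6 was higher in 6 of 6 pairs with a difference of 0.14, and Itgb4 lower in 6 of 6 pairs with a difference of -0.12. Neither passed, with adjusted p-values in limma of 0.698 and 0.739 with the library set and 0.0852 and 0.191 with the block.

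Genes of p63 turnover and p63 partners were measured as 13 genes, among them ubiquitin ligases and the transcription factors Sox2 and Klf5. With the library set 0 passed and 2 were below 0.05 before adjustment. The block gave 1 gene that passed and 3 below 0.05 before adjustment. The difference was above 0 for 3 of 13, with a median of -0.039. The gene that passed was Sox2, which encodes a transcription factor of airway identity that binds with p63 in squamous and basal cells. Its control dishes ranged from 3376 to 4428 normalized counts and its ablation dishes from 3080 to 4132. The groups overlapped, and it was lower in 6 of 6 pairs. This list, like the others, was chosen with earlier results of these data known, so its 1 call is not independent support.

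The log2 difference of Sox2 was -0.17, with an adjusted p of 0.642 (SE 0.084) with the library set and 0.0488 (SE 0.038) with the block in limma. Leaving out any 1 pair raised the latter to between 0.0541 and 0.161. The other gene of the list with a large difference was Nedd4, a HECT ubiquitin ligase gene, with -0.16 (adjusted p = 0.591 with the library set and 0.0739 with the block in limma). Nedd4 was lower in 6 of 6 pairs, with 22156 ± 1809 normalized counts after ablation and 24639 ± 1114 in the control.

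Multiciliated genes linked to p73 were measured as 14 genes, and only 6 passed the minimum. Of these 6, 0 passed in either model, and 0 were below 0.05 before adjustment in limma. The difference was above 0 for 4 of 6, with a median of 0.053. Myb, a transcription factor of early multiciliated differentiation, had the largest difference with -0.14 (adjusted p = 0.887 in limma), followed by the cell cycle regulator E2f7 with 0.11 (adjusted p = 0.888 in limma). Rfx3, a transcription factor of ciliated cells named after its values were seen, was higher in 6 of 6 pairs by 0.08 (adjusted p = 0.813 in limma). Foxj1, the main transcription factor of motile cilia and a direct target of p73, was not tested, with a mean of 7.81 ± 3.47 normalized counts in ablation and 11.9 ± 5.11 in control dishes (SD, n = 6). Gmnc and Mcidas, which act at the start of multiciliated differentiation, had mean levels below 1 normalized count in both groups, and Foxn4 was at 0 in all dishes.

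**Figure D4:**
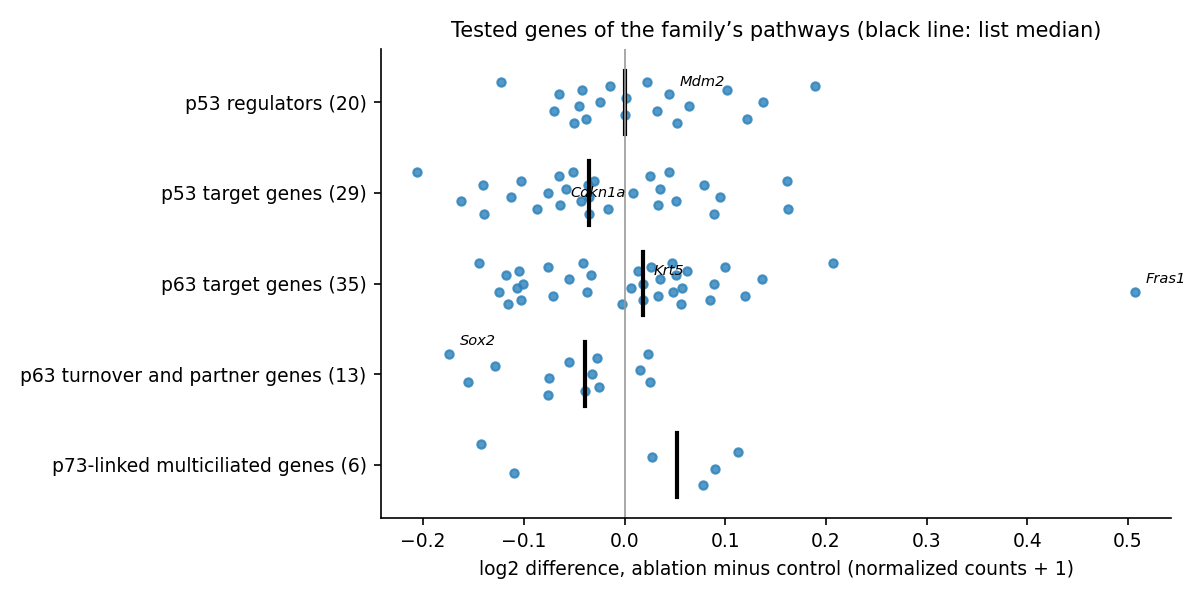
Log2 difference between ablation and control dishes (normalized counts + 1) for each tested gene of the 5 pathway lists, with 1 point per gene, the number of genes in brackets and a black line at the median of the list. The list medians lie between -0.039 and 0.053, and the 3 family genes are not among the points.

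Between late and early culture days, 0 genes of these 5 lists passed the test, with 1 gene (0.00725%) among all genes, Igfbp5, and 895 (6.49%) below 0.05 before adjustment. Tests for a response to ablation that differed between library sets or between early and late pairs gave 0 calls among the 100 tested genes of the lists. Their lowest adjusted p-values in limma were 0.592 and 0.747. Among all 13792 genes, 1 and 0 passed, and 1087 and 803 were below 0.05 before adjustment.

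Genes next to the family on the chromosomes were followed by their levels. Wrap53, which lies beside Trp53 on the opposite strand and encodes a telomerase Cajal body protein, ranged from 484 to 626 normalized counts in control and from 487 to 699 in ablation dishes. It was higher after ablation in 6 of 6 pairs, as were 5.17% of all genes, by a mean log2 difference of 0.12. Wrap53 did not pass the test, with an adjusted p in limma of 0.772 with the library set and 0.236 with the block. Wrap73, beside Trp73 on the opposite strand, had 374 ± 26.6 normalized counts in control and 339 ± 31.8 in ablation dishes. It was lower in 6 of 6 pairs, as were 4.63% of all genes, by a mean log2 difference of -0.14. Wrap73 did not pass the test, with an adjusted p in limma of 0.690 with the library set and 0.253 with the block. Around Trp63, P3h2 had 2045 ± 136 and 2201 ± 316 normalized counts, Tprg 317 ± 55.0 and 287 ± 33.4, and Il1rap 407 ± 42.7 and 515 ± 109 in control and ablation dishes. Il1rap was higher in 5 of 6 pairs by a mean log2 difference of 0.32. It did not pass either, with an adjusted p in limma of 0.537 with the library set and 0.0914 with the block. P3h2 was also higher in 5 of 6 pairs, and Tprg was lower in 5 of 6. Of the remaining neighbors, Tprgl had 2537 ± 108 and 2440 ± 182 and Efnb3 41.7 ± 11.3 and 42.3 ± 10.5 normalized counts. Tprgl was lower in 5 of 6 pairs and Efnb3 in 3 of 6. Only levels were planned for the neighbors, and the directions and tests go beyond that plan. Atp1b2, Sat2, Smim1 and Ccdc27 had mean levels below 10 normalized counts, and Shbg was at 0.

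Finally, the 5 genes with the most similar profile were found for each family gene, by the Pearson r of log2 values over the 12 dishes. These coefficients describe the dishes and include the difference between groups and the levels of pairs, as dishes of a pair share passage, day and library set. For Trp63, they were Hcar2, a receptor for hydroxybutyrate and niacin (r = 0.92), the phospholipase gene Plcg2 (0.92), the interleukin-36 receptor gene Il1rl2 (0.92), the cystine transporter gene Slc7a11 (0.90) and Pthlh, which encodes the parathyroid hormone-related protein (0.87). Over the 6 differences within pairs, r with Trp63 was 0.85 for Il1rl2, 0.71 for Pthlh and 0.67 for Plcg2, but only 0.25 for Hcar2 and 0.0019 for Slc7a11. Hcar2 had 1128 ± 98.1 normalized counts in control and 1437 ± 214 in ablation dishes (SD, n = 6). All 5 genes were higher after ablation in 6 of 6 pairs, a direction that their choice by likeness to Trp63 largely fixes.

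For Trp73, the genes were Klf15, a Krüppel-like transcription factor (r = 0.97), the filamin-interacting Rflnb (0.95), Sox2 (0.95), the mitochondrial import gene Timm29 (0.94) and the translation initiation factor gene Eif3f (0.94). Klf15 ranged from 51.7 to 180 normalized counts in control and from 25.3 to 123 in ablation dishes, with a median of 99.4 and 53.4. Its dishes overlapped between the groups. Over the 6 differences within pairs, r with Trp73 was 0.83 for Sox2, 0.82 for Klf15, 0.62 for Eif3f, 0.54 for Timm29 and 0.42 for Rflnb.

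For Trp53, the genes were the importin gene Ipo4 (r = 0.96), the chromosome condensation regulator gene Rcc2 (0.95), the proprotein convertase gene Pcsk6 (0.94), Hnrnpu, which encodes a nuclear RNA-binding protein (0.93), and Nhlrc2 (0.93). Ipo4 had 1441 ± 108 normalized counts in control and 1241 ± 163 in ablation dishes (SD, n = 6). Over the 6 differences within pairs, r with Trp53 ranged from 0.81 for Nhlrc2 to 0.96 for Rcc2.

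**Figure D5:**
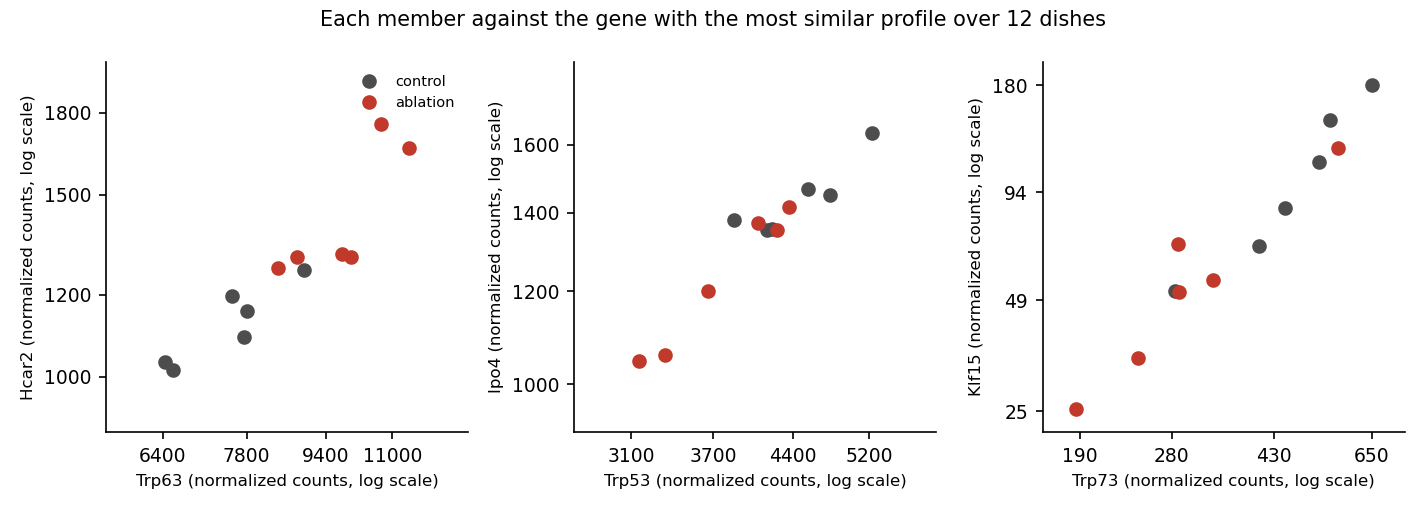
Normalized counts of Trp63, Trp53 and Trp73 in the 12 dishes against those of the gene with the highest Pearson r to each, Hcar2, Ipo4 and Klf15, on log axes. The gene on the vertical axis is higher in dishes with more of the family gene in each plot, with r of 0.92, 0.96 and 0.97, and the genes were chosen for this likeness.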

How the data were processed

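RNA of 12 organoid dishes was isolated in one run, enriched for poly(A), made into stranded libraries and sequenced from both ends (75 bases each). The authors mapped and counted reads on the GENCODE annotation of GRCm38.p6 and, with DESeq2, divided the counts of each library by its size factor. These deposited normalized counts, a signal value per gene and library, were the starting point. The strand setting of the counting and the annotation release are not given in the sources used here. The table as deposited by the authors also holds their own log2 fold changes, score columns (standard errors and test statistics) and p-values, which were not used.

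Tests covered the 13792 genes that reached 10 normalized counts in 6 or more libraries, out of 55401 listed and 28534 with a read. Values were taken as log2 of the normalized count plus a pseudocount of 1, and differences are on this scale. Tests were run with limma 3.58.1 in R 4.3.3 (eBayes with trend and robust estimation) with condition and library set as factors, since the methods name a batch without saying what it was. The Benjamini-Hochberg adjustment ran over all genes tested, with a threshold of 0.05.

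In each library, all of the lower values, to which this check was limited, were whole multiples of 1 step. Whole reads were accepted for 9 libraries, with a tolerance of 0.05 reads, and edgeR 4.0.16 was run on them as an alternative. The steps of ablation 3, ablation 4 and control 4 were too near to 1 to be accepted.

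Pairs are dishes with one number, for which the labels give one passage and one culture day. Across genes, deviations from the group means correlated within pairs with r of 0.62, 0.49, 0.21, 0.32, 0.38 and 0.33 for pairs 1, 3, 4, 5, 6 and 7. Late and early culture days were compared over the 6 pair means.

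The 3 genes and all gene lists were chosen with earlier results of these data known. In each pathway list, genes that passed in either model and the 2 with the largest difference were named, as well as Mdm2, Cdkn1a, Krt5, Foxj1, Wrap53 and the chromosomal neighbors. Markers of basal, secretory, multiciliated, fibroblast, endothelial, immune, alveolar type II, neuroendocrine and tuft cells were summed per dish. Promoters were taken from RefSeq (2 of the 3 genes matched) and gene models from GENCODE M21. The scripts were tested on simulated data.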

Additional observations from a re-analysis of the deposited data

How the results depend on the processing

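The differences of the 3 genes between ablation and control kept their sign under every alternative run. Without 1 pair, they ranged from 0.35 to 0.43 for Trp63, from -0.71 to -0.56 for Trp73 and from -0.30 to -0.20 for Trp53, and other pseudocounts or scalings changed them by less than the spread of pairs. Late minus early, leaving out 1 pair gave -0.011 to 0.16 for Trp63, negative without replicate 3 (-0.0063) or replicate 4 (-0.011), -0.22 to 0.47 for Trp73, negative without replicate 5, and 0.15 to 0.28 for Trp53. For Trp53, it was 0.094 in control dishes and 0.33 in ablation dishes. The count of genes called between ablation and control was 0 with the library set and 150 with the replicate block. The block gave 176, 90, 8, 77, 106 and 140 genes without replicate 1, 3, 4, 5, 6 and 7, 356 without the filter on low values, 16 in library set 1 and 109 in library set 2. With plain eBayes, the block called 0 genes (2190 at an unadjusted p-value under 0.05). Without a filter, the library set model called 3 genes (Arrdc3, Tenm4 and Osgin1). EdgeR called 0 genes on 9 libraries (807 at an unadjusted p-value under 0.05) and, with the block on 4 pairs, 2 (Arrdc3 and Aldh1a1). Among the lists, the block called 1 regulator of p53, Chek1, without replicate 1. It called 1 of the p63 turnover and partner genes (Sox2), and without the filter 2 of these (Sox2 and Nedd4) and 1 p63 target (Itga6). Of the other list counts, none changed. The late against early comparison called 1 gene, 12 without the filter, 0 to 3 without 1 pair, and 0 without the library set, with plain eBayes, or in control or ablation dishes alone. The library set 1 and set 2 values, the edgeR fits and the restricted block fits were chosen after seeing the data. The causes of these differences were not tested. With 6 pairs and bulk RNA, shifts in transcripts of 1 start site or in a few cells near the ablated ones are beyond what the gene-level values can resolve.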
